A study of Homo sapiens with 12 samples.

Results

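The genes described here belong to bone morphogenetic protein (BMP) signalling: 4 targets, ID1, ID2, ID3 and ID4; the inhibitory SMADs, SMAD6 and SMAD7; SMAD9, a receptor-regulated SMAD; the ligand BMP4; and the secreted antagonists NOG and GREM1. They were found by symbol among the 61552 gene identifiers of each library, and all 10 were listed once. They were chosen with values of the comparison below in view, so their own fold changes are given as a description; how many of them the fit across all genes called is counted once, and nothing is read from that count. The cells were RD, a long-established line grown out of a human embryonal rhabdomyosarcoma (ERMS, genotype FN-RMS in the labels), a tumour that resembles immature skeletal muscle. One group received an EHMT1-specific siRNA (n = 3 libraries) and the other a scrambled siRNA (n = 3 libraries), both carried by Lipofectamine RNAiMAX, and RNA was taken at 48 h. Both groups are the same single cell line in the same serum-containing medium, and how many different siRNAs were used against EHMT1 is not given in the sources used here. EHMT1, also called GLP, is a methyltransferase for lysine 9 of histone H3. The 6 libraries of a SOX8 siRNA experiment in the same series were not analysed here.

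BMPs are secreted ligands that join pairs of serine/threonine kinase receptors at the cell surface. The active receptors phosphorylate SMAD1, SMAD5 and SMAD9, which enter the nucleus with SMAD4 and switch on target genes, the ID genes among the most direct of them. SMAD6 and SMAD7 are targets too, and feed back on the receptors, while NOG (noggin) and GREM1 (gremlin) bind the ligands outside the cell. ID proteins have a helix-loop-helix domain but no basic region to bind DNA, so they pair with E proteins such as TCF3 and keep them from partners such as MYOD1; in myoblasts this is known to hold back differentiation.

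SMAD proteins recognise short words in DNA, of which the half-site AGAC (GTCT on the other strand) is the best known. The promoters of ID1, ID3, SMAD6 and ID2 are shown as examples, picked with their values known. The first 3 genes were lower and the last was higher in the mean with EHMT1 siRNA. SMAD9 and BMP4 were also lower in each EHMT1 siRNA library and SMAD7 was also higher in the mean, but their promoters are not shown. The groups of ID2 overlapped, and NOG, higher in each EHMT1 siRNA library, had no entry among the promoters used. Each promoter shown is the 250 bases upstream of the RefSeq start on GRCh38.p14, read 5′ to 3′ on the gene's strand. Half-sites are in capitals. The ID1 window is chr20:31605039-31605288 (+), that of ID3 chr1:23559502-23559751 (-), that of SMAD6 chr15:66701986-66702235 (+) and that of ID2 chr2:8681806-8682055 (+).
ID1: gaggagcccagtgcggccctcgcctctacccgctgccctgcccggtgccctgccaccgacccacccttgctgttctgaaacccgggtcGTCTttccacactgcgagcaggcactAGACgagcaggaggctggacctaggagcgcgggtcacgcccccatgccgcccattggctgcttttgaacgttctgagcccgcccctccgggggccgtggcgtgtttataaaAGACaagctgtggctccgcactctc
ID3: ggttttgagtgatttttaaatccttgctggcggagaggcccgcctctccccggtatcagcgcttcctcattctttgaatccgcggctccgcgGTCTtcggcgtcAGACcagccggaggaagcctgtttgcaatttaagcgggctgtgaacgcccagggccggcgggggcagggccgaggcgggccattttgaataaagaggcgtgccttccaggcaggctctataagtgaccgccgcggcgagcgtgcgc
SMAD6: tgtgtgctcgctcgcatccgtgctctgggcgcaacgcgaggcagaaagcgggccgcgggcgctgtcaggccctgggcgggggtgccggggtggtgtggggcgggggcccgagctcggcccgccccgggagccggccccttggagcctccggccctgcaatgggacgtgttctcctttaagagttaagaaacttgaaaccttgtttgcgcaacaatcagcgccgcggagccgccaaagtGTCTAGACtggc
ID2: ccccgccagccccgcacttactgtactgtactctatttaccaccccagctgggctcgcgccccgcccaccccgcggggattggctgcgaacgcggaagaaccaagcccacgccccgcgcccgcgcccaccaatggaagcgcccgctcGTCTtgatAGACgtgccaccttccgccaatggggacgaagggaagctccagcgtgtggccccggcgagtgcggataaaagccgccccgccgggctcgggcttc

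Half-sites numbered 3 in the ID1 window and 2 in each of the ID3, SMAD6 and ID2 windows, and 77.5% of all 35116 promoter windows of this length in the RefSeq table held at least 1 on either strand. In SMAD6 the pair formed the palindrome GTCTAGAC, whose first base lay at position -12 from the start. That palindrome was in 0.182% of all windows and in 1 of the 14 windows of these genes. All but NOG, so 9 of the 10 genes, had an entry, some with several starts. The GC-rich word GGCGCC, also known from BMP-responsive elements, was in none of the 4 windows and in 16.4% of all windows. ID1 and ID3 each held TATAA, found in 18.9% of all windows, and the SMAD6 and ID2 windows did not. The E-box CANNTG, to which E proteins bind, was in the ID2 window once, in none of the other 3, and in 61.8% of all windows. Of the other 7 words searched on both strands, CAGAC (38.0% of all windows) was in ID3 alone of the 4, GGAGCC (30.6%) was in ID1, ID3 and SMAD6, CACGTG (6.34%) in none, TATAAA (10.7%) in ID1, CCAAT (32.01%) in ID1 and ID2, CGCCC (54.8%) in all 4, and CCGCCC (42.6%) in ID1, ID2 and SMAD6. Some words contain others: the half-site lies within CAGAC and within the palindrome, TATAA lies within its 6-letter form, CACGTG is an E-box, and CGCCC lies within its longer form. These are matches of letters in a short window, and many known BMP-responsive elements lie further upstream than it reaches.

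The libraries held 40639655 to 47258481 gene counts. EHMT1 had 53.2, 54.4 and 57.6 CPM (counts scaled to a common library size with TMM factors) in EHMT1 siRNA replicates 1, 2 and 3, against 130.9, 155.9 and 130.1 CPM in scrambled replicates 1, 2 and 3 (log2 fold change -1.34, SE 0.072, edgeR adjusted p = 9.13e-09; exact two-sided permutation p = 0.1, the smallest that 3 against 3 libraries allow). The scrambled libraries were spread more widely than the others: along the leading principal component (35.8% of variance) the EHMT1 siRNA libraries lay between -21.6 and -19.6, against 36.4 for scrambled replicate 2 and 9.16 for scrambled replicate 3. Along the second component (23.9%) scrambled replicate 1 was at -31.3 and scrambled replicate 2 at 26.6. Of 11 markers of myoblasts and rhabdomyosarcoma, 10 reached a mean of 1 CPM in scrambled cells, and MYF5 was at 0. Their summed level was 1726 to 1802 CPM with EHMT1 siRNA and 1486 to 1717 CPM with scrambled siRNA, with no overlap. Its largest part was CHRNA1 (means of 716 CPM with EHMT1 siRNA and 638 CPM with scrambled siRNA), which was not called. Of the 11, 4 were called as risen, beside 5.81% of all tested genes. These were CHRND (means of 215 CPM with EHMT1 siRNA and 161 CPM with scrambled siRNA), PAX7 (69.9 and 57.7 CPM), TNNT2 (4.50 and 2.91 CPM) and MYL4 (3.17 and 1.71 CPM). MYOG (44.9 and 49.5 CPM), DES (299 and 311 CPM) and CDH15 (103 and 106 CPM) were lower in the mean. None of these and not MYOD1 was called. Summed over 5 endothelial markers the level was 7.40 to 8.58 CPM with EHMT1 siRNA and 3.40 to 4.08 CPM with scrambled siRNA, nearly all of it TIE1. CDH5 and PECAM1 averaged at most 0.103 CPM in either group. For epithelial and blood markers the sums overlapped between groups. Over 6 epithelial markers the sum was 75.6 to 80.2 CPM with EHMT1 siRNA and 70.5 to 81.5 CPM with scrambled siRNA, mostly KRT18. Over 5 blood markers it was 0.071 to 0.289 CPM with EHMT1 siRNA and 0.100 to 0.188 CPM with scrambled siRNA. Over 4 bone markers the sum was 8.72 to 9.65 CPM with EHMT1 siRNA and 6.52 to 7.94 CPM with scrambled siRNA, almost all ALPL; IBSP was at 0. Over 4 cartilage markers the sum was lower, at 10.20 to 11.96 CPM with EHMT1 siRNA and 13.8 to 14.4 CPM with scrambled siRNA, and COL2A1 was called as fallen (means of 8.49 CPM with EHMT1 siRNA and 11.4 CPM with scrambled siRNA). The part of these shifts in the results below was not tested. In bulk RNA, fewer cells expressing a gene and less RNA in each cell cannot be told apart.

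Per length, the scrambled cells held far more ID3, NOG and ID1 than the other genes of the set. Levels are given as reads per kilobase of merged exons, scaled for library size (RPKM), which allows genes to be compared. The median over the 3 scrambled libraries was 63.1 RPKM for ID3, 34.4 for NOG, 34.1 for ID1, 3.67 for ID2, 2.18 for SMAD6, 1.87 for SMAD7, 0.465 for SMAD9, 0.194 for BMP4, 0.108 for GREM1 and 0.0729 for ID4. NOG and ID1 overlapped between libraries, as did GREM1 and ID4; each other neighbouring pair in this order was separate in all 3 scrambled libraries. Thus the ligand BMP4 was measured at 0.187 to 0.206 RPKM and its antagonist noggin at 33.9 to 36.9 RPKM in the same libraries. BMP4 rested on only 12 to 28 reads in each of the 6 libraries and ID4 on 4 to 12.

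**Figure D1:**
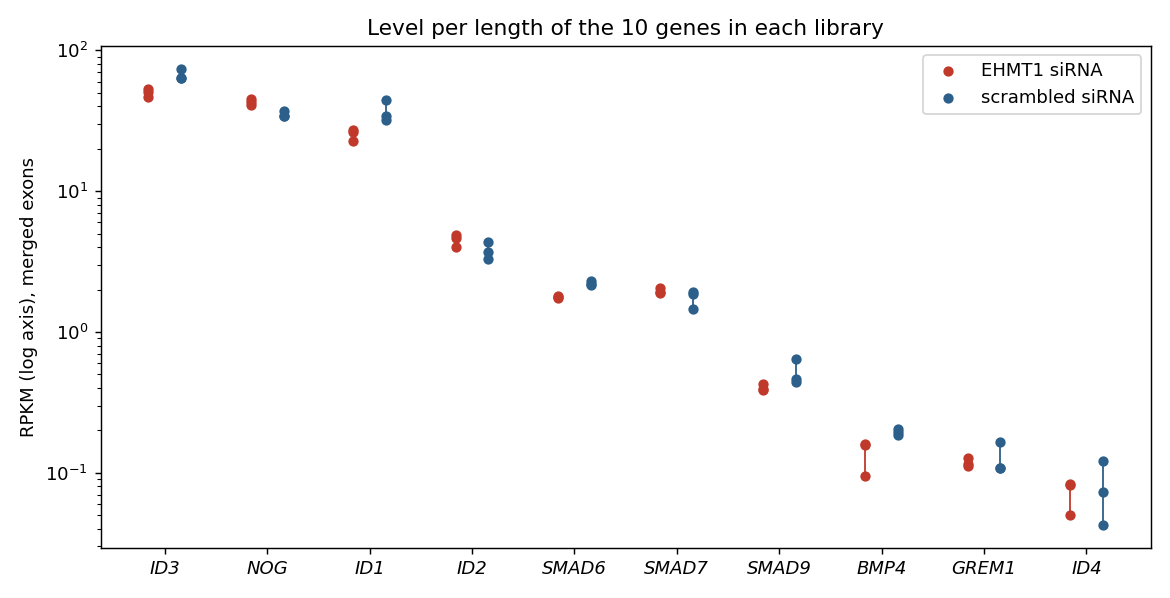
Level per length of the 10 genes, in RPKM on a log axis, with 1 point per library and a line over the range of each group (EHMT1 siRNA left, scrambled siRNA right, n = 3 each). ID3, NOG and ID1 lie above 20 RPKM in every library, and BMP4, GREM1 and ID4 lie below 1.

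ID1 and ID3, the most abundant of the ID targets, were lower in each EHMT1 siRNA library than in each scrambled library. ID1 (ENSG00000125968) had 32.3, 27.8 and 33.3 CPM in EHMT1 siRNA replicates 1, 2 and 3, against 55.1, 42.0 and 39.3 CPM in scrambled replicates 1, 2 and 3. Scrambled replicate 1 was the highest of the 6 and EHMT1 siRNA replicate 2 the lowest. The means were 31.2 ± 2.92 CPM with EHMT1 siRNA and 45.5 ± 8.44 CPM with scrambled siRNA (SD, n = 3 each), a log2 fold change of -0.55 (SE 0.107) that left 68.6% of the level. Without scrambled replicate 1 it was -0.39, and without scrambled replicate 2 it was -0.61.

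ID3 (ENSG00000117318) had 90.3, 83.3 and 94.8 CPM in EHMT1 siRNA replicates 1, 2 and 3, against 133, 113 and 113 CPM in scrambled replicates 1, 2 and 3. The order of the libraries was like that of ID1: scrambled replicate 1 highest and EHMT1 siRNA replicate 2 lowest, with no overlap between groups. The mean was 89.4 ± 5.79 CPM with EHMT1 siRNA and 119.9 ± 11.2 CPM with scrambled siRNA (SD, n = 3 each), a log2 fold change of -0.42 (SE 0.0703) that left 74.6% of the level. It was -0.34 without scrambled replicate 1 and -0.47 without scrambled replicate 2.

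ID2 went the other way in its mean, with overlapping groups. ID2 (ENSG00000115738) had 10.2, 8.80 and 10.8 CPM in EHMT1 siRNA replicates 1, 2 and 3, against 9.66, 8.09 and 7.30 CPM in scrambled replicates 1, 2 and 3. The log2 fold change was 0.25 (SE 0.114), with EHMT1 siRNA replicate 2 below scrambled replicate 1. It was 0.16 without scrambled replicate 3 and 0.37 without scrambled replicate 1. ID4 (ENSG00000172201) had 5, 8 and 8 reads with EHMT1 siRNA and 8, 4 and 12 with scrambled siRNA, too few to pass the filter on low counts.

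The share of ID2 within the ID family was higher with EHMT1 siRNA. ID1 and ID3 made up most of the summed level and were lower, so this share would be higher even with ID2 unchanged. The groups of ID2 itself overlapped. Summed over the 4 genes the level was 73.0 to 84.8 RPKM with EHMT1 siRNA and 98.3 to 123.0 RPKM with scrambled siRNA. ID2 made up 5.47% to 5.76% of that sum with EHMT1 siRNA and 3.37% to 3.63% with scrambled siRNA, with no overlap. ID3 held 61.9% to 63.5% of it with EHMT1 siRNA and 60.1% to 64.1% with scrambled siRNA, and ID1 held 30.9% to 32.3% with EHMT1 siRNA and 32.4% to 36.3% with scrambled siRNA. These shares are counted on reads that can be split by length only approximately, since the annotated exons are not all used in every cell.

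**Figure D2:**
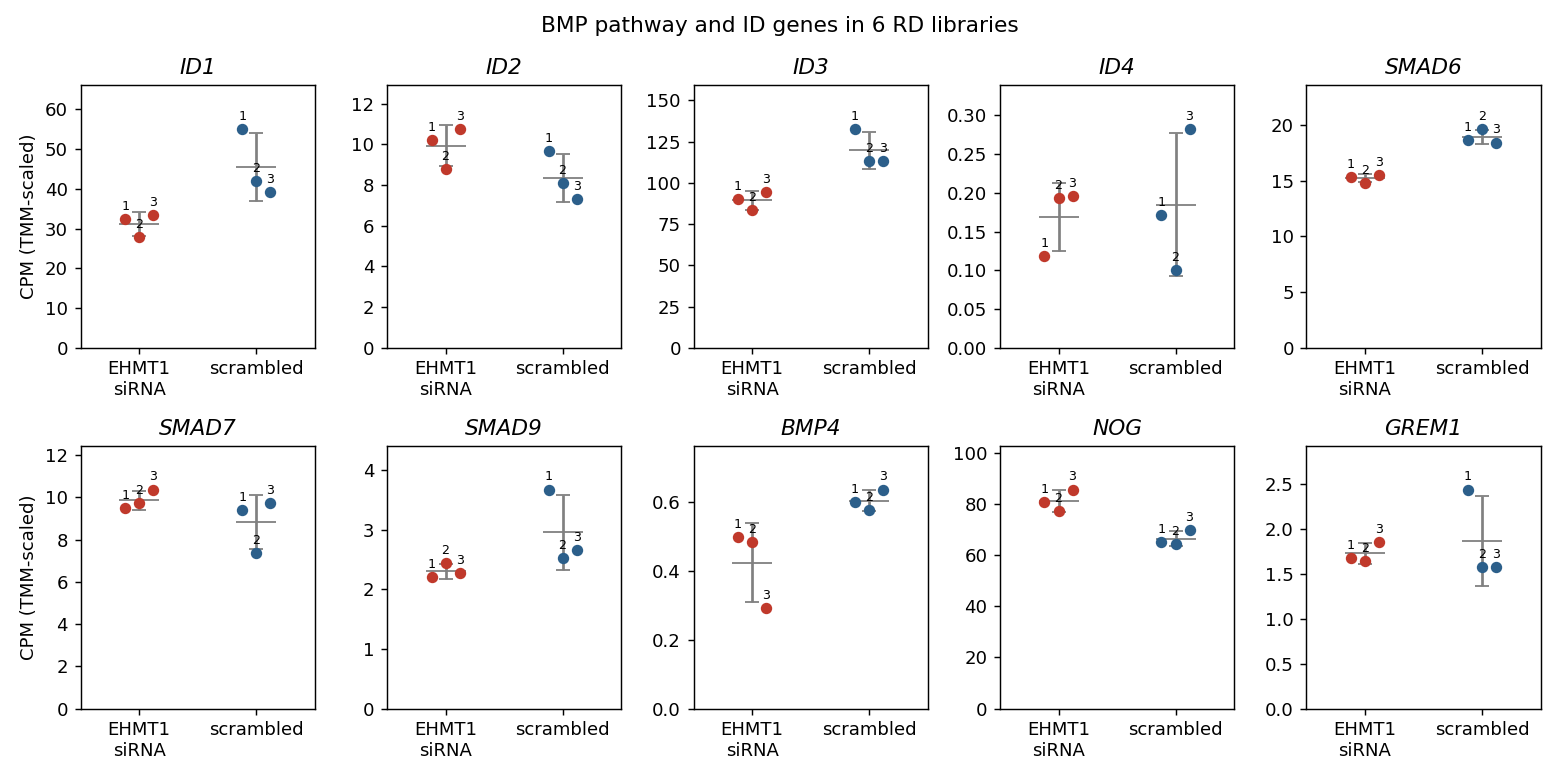
CPM of each of the 10 genes in each library (linear axes from 0; numbers mark replicates; grey bars are mean ± SD, n = 3 each), EHMT1 siRNA left and scrambled siRNA right. ID1, ID3, SMAD6, SMAD9 and BMP4 lie lower in all EHMT1 siRNA libraries, NOG lies higher in all of them, and the groups overlap for ID2, ID4, SMAD7 and GREM1.

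The inhibitory SMADs, which are feedback targets of the pathway, differed from each other. SMAD6 (ENSG00000137834), which acts mainly on BMP receptors, had 15.3, 14.8 and 15.5 CPM in EHMT1 siRNA replicates 1, 2 and 3, against 18.6, 19.7 and 18.4 CPM in scrambled replicates 1, 2 and 3. The spread within each group was small beside the gap between them. The log2 fold change was -0.31 (SE 0.0747), 80.4% of the scrambled level, and it lay between -0.33 and -0.29 with any 1 library left out. SMAD7 (ENSG00000101665), which acts on both TGF-beta and BMP receptors, had 9.51, 9.74 and 10.4 CPM with EHMT1 siRNA and 9.40, 7.36 and 9.73 CPM with scrambled siRNA. Its groups overlapped, and its log2 fold change of 0.16 (SE 0.108) became 0.04 without scrambled replicate 2, the lowest library.

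SMAD9 (ENSG00000120693), a signal-carrying SMAD of the BMP branch that was present at a low level, had 2.20, 2.43 and 2.27 CPM in EHMT1 siRNA replicates 1, 2 and 3, against 3.68, 2.53 and 2.66 CPM in scrambled replicates 1, 2 and 3. The groups did not overlap, but scrambled replicate 1 set much of the gap: the log2 fold change was -0.37 (SE 0.174) with it and -0.18 without it. BMP4 (ENSG00000125378) had 0.497, 0.482 and 0.293 CPM with EHMT1 siRNA and 0.598, 0.576 and 0.636 CPM with scrambled siRNA. All 3 EHMT1 siRNA libraries were lower, on few reads, with a log2 fold change of -0.50 (SE 0.341) that was -0.30 without EHMT1 siRNA replicate 3, the lowest library.

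Noggin was the one gene of the set that was higher in each EHMT1 siRNA library. NOG (ENSG00000183691) had 80.6, 77.2 and 85.6 CPM in EHMT1 siRNA replicates 1, 2 and 3, against 65.0, 64.2 and 69.7 CPM in scrambled replicates 1, 2 and 3. Its means were 81.1 ± 4.21 CPM with EHMT1 siRNA and 66.3 ± 2.99 CPM with scrambled siRNA (SD, n = 3 each), a log2 fold change of 0.29 (SE 0.061), or 122% of the scrambled level. GREM1 (ENSG00000166923) had 1.68, 1.64 and 1.86 CPM with EHMT1 siRNA and 2.44, 1.58 and 1.58 CPM with scrambled siRNA. Its groups overlapped, and the sign of its log2 fold change of -0.12 (SE 0.208) turned to 0.13 without scrambled replicate 1.

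**Figure D3:**
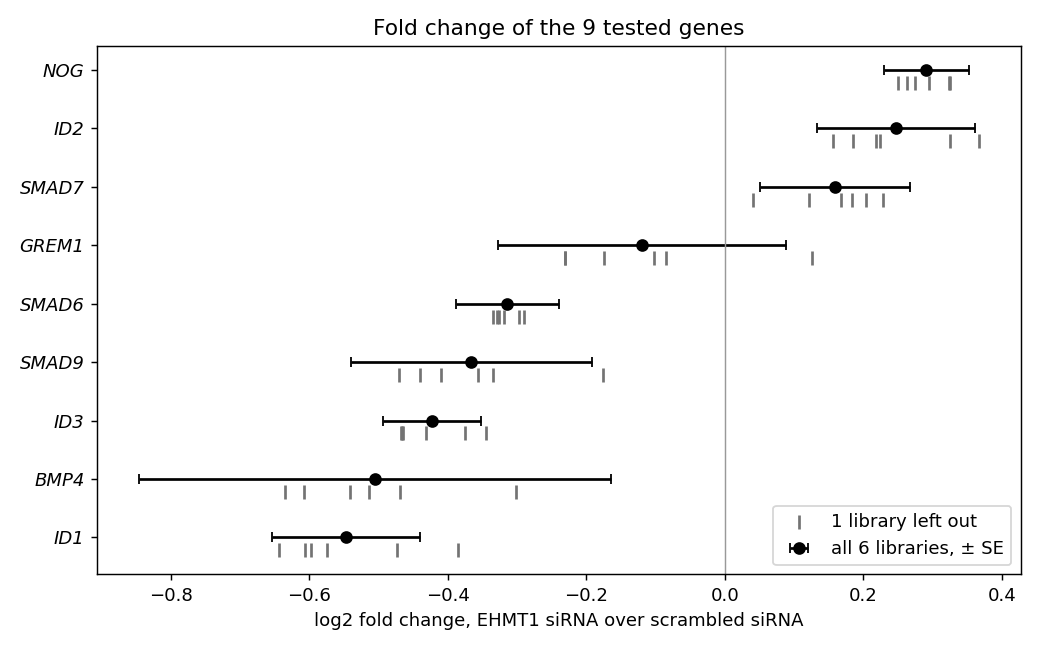
Log2 fold change of the 9 genes that passed the filter on low counts, EHMT1 siRNA over scrambled siRNA (points with bars: all 6 libraries ± SE; ticks: 1 library left out). Every gene but GREM1, called or not, keeps the sign of its fold change with any 1 library left out, while GREM1 crosses 0.

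Read against all genes, 3 of the 9 genes that passed the filter were called lower (ID1, ID3 and SMAD6) and 1 was called higher (NOG) at an edgeR adjusted p under 0.05. Of the 18646 genes tested, 12.4% were called, 6.54% as falling and 5.81% as rising. Groups of libraries did not overlap for 5 of the 10 genes in the lower direction and 1 in the higher, where 15.5% and 15.4% of all tested genes did so. Because the genes were chosen on this comparison, nothing is read from these shares. The call of SMAD6 was lost without EHMT1 siRNA replicate 1 or 2 and that of NOG without EHMT1 siRNA replicate 3, and ID2 was called as higher without scrambled replicate 1. After correction for GC content and length ID1 was not called, at a log2 fold change of -0.60, and with the replicate block added to that correction it was called, at -0.58.

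The profiles most like those of ID1, ID3 and NOG were sought among 11569 other protein-coding genes, as the root mean square difference of centred log2 CPM over the 6 libraries. For ID1 they were PPEF1 (0.0937), FUT8 (0.0939), E2F7 (0.0964), THUMPD1 (0.0997) and ABHD17C (0.101), against 0.0984 for ID3, 0.201 for SMAD6, 0.448 for NOG and a median of 0.322 over all genes. For ID3 they were ALDH1B1 (0.0462), CDC25A (0.0484), ZNF572 (0.0518), POLR2C (0.0521) and ZNF808 (0.0522), against 0.0984 for ID1, 0.111 for SMAD6, 0.369 for NOG and a median of 0.241. For NOG they were RHOB (0.0248), CYP3A5 (0.0266), GARRE1 (0.0291), TBC1D8B (0.0320) and MID1IP1 (0.0335), against 0.448 for ID1, 0.369 for ID3, 0.309 for SMAD6 and a median of 0.185. These distances describe 6 libraries in 2 groups and were not tested. Genes with a like fold change between the groups come out near in this measure. The 5 genes nearest ID1 had log2 fold changes of -0.63 to -0.49, and the 5 nearest NOG 0.27 to 0.33. No shared regulation is read from them.

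The rest of the pathway was examined through 7 lists of 136 other genes, tested in the same fit. The median log2 fold change of all genes tested was 0.00, and the counts of each list stand beside the 5.81% of all tested genes that rose and the 6.54% that fell. Nothing particular to a list is read from its counts. Among 16 other BMP-type ligands 7 passed the filter, 0 rose and 1 fell, with a median of -0.07 (at an unadjusted p under 0.05, edgeR gave 0 risen and 2 fallen; DESeq2 and limma-voom called 0 risen and 1 fallen each). The one that fell was GDF11, a ligand of the activin branch, at 58.9 ± 1.84 CPM with EHMT1 siRNA and 71.2 ± 4.51 CPM with scrambled siRNA (SD, n = 3 each; log2 fold change -0.27, edgeR adjusted p = 0.00791), a call lost without EHMT1 siRNA replicate 1. MSTN, the muscle growth inhibitor myostatin, had the highest level of the list per length (187.8 RPKM in scrambled cells) and a log2 fold change of -0.07 (edgeR adjusted p = 0.486). BMP2 and BMP6 were among the 9 that did not pass the filter. BMP7 passed it, at a median of 1.28 RPKM in scrambled cells, beside 0.194 for BMP4. It had 5.28, 5.38 and 6.20 CPM with EHMT1 siRNA and 6.92, 6.73 and 7.06 CPM with scrambled siRNA. Its log2 fold change was -0.30 (edgeR adjusted p = 0.0876), not called, though it was called after correction for GC content and length.

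Of 14 receptors and co-receptors 13 passed the filter, and 1 rose and 1 fell, with a median of -0.07. At an unadjusted p under 0.05, edgeR gave 2 risen and 3 fallen. DESeq2 called 1 risen and 2 fallen, limma-voom 1 and 1. BMPR2, the type II BMP receptor, rose by 0.22 on the log2 scale (edgeR adjusted p = 0.0348), at 159.6, 173 and 160.0 CPM with EHMT1 siRNA and 141, 130.2 and 152 CPM with scrambled siRNA. TGFBR3, the co-receptor betaglycan, had a log2 fold change of -0.41 (edgeR adjusted p = 0.0154). The call of BMPR2 was lost without any 1 EHMT1 siRNA library or scrambled replicate 1, and that of TGFBR3 without EHMT1 siRNA replicate 2 or 3 or scrambled replicate 3. ENG (endoglin, 41.9 RPKM in scrambled cells) and the type I receptor ACVR1 (22.9 RPKM) had the highest levels per length, with log2 fold changes of 0.06 and 0.11 (edgeR adjusted p = 0.685 and 0.266).

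Within the cell, transcripts of the SMADs that carry the signal with SMAD9 differed little: SMAD1 was at -0.07, SMAD5 at 0.03 and SMAD4 at 0.04 (log2 fold changes; edgeR adjusted p = 0.587, 0.880 and 0.852). Of 22 genes in this list, all tested, 2 rose and 3 fell, with a median of -0.05. At an unadjusted p under 0.05, edgeR gave 5 risen and 4 fallen. DESeq2 and limma-voom each called 2 risen and 3 fallen. SKI, a co-repressor that binds SMADs, had a log2 fold change of -0.33 (edgeR adjusted p = 0.00138), at 102.5 ± 4.06 CPM with EHMT1 siRNA and 129 ± 6.75 CPM with scrambled siRNA (SD, n = 3 each). The ubiquitin ligases SMURF1 and SMURF2, which mark SMADs and receptors for degradation, were called in opposite directions, at -0.25 and 0.21 (edgeR adjusted p = 0.0079 and 0.0447). ZNF423, a partner of SMAD1 on BMP target genes, was at -0.32 and TOB2, of a family that dampens SMAD activity, at 0.24 (edgeR adjusted p = 0.0114 and 0.0134). Without any 1 EHMT1 siRNA library the calls of SMURF2 and TOB2 were lost, that of SMURF1 was lost without replicate 2 or 3, and that of ZNF423 without replicate 2; SMURF2 was also lost without scrambled replicate 3. The phosphatase genes CTDSP2 (40.2 RPKM in scrambled cells) and CTDSP1 (24.4 RPKM), the highest of the list per length, were at 0.11 and -0.06 and not called.

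The next list held 20 other secreted regulators of BMPs, antagonists and other modulators together with the proteases BMP1, TLL1 and TLL2. Of these 12 passed the filter and edgeR called 0 in either direction, with a median of -0.06. At an unadjusted p under 0.05 there were 0 higher and 3 lower; DESeq2 called 2 lower and limma-voom 1. The most abundant per length were FSTL1 (51.2 RPKM in scrambled cells), at a log2 fold change of 0.07, and TLL2 (49.0 RPKM), at -0.17 (edgeR adjusted p = 0.533 and 0.0683). The difference between NOG and these genes was not tested.

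The called genes among other transcription targets of BMPs went in both directions. Of 25 listed 21 were tested, 3 rose and 2 fell, and the median was -0.12. Log2 fold changes were above 0 for 7 and below 0 for 14. At an unadjusted p under 0.05, edgeR gave 4 risen and 6 fallen. DESeq2 and limma-voom each called 3 risen and 2 fallen. ATOH8, a helix-loop-helix factor known as a direct BMP target, had a log2 fold change of -0.36 (edgeR adjusted p = 0.0139), at 20.7 ± 1.91 CPM with EHMT1 siRNA and 26.6 ± 3.02 CPM with scrambled siRNA (SD, n = 3 each), and GATA2, a zinc finger factor, one of -0.41 (edgeR adjusted p = 0.00902). NKX3-2, a homeobox repressor of the skeletal mesoderm, rose by 1.09 on the log2 scale at a low level (edgeR adjusted p = 0.00095), at 4.77 ± 0.742 CPM with EHMT1 siRNA and 2.25 ± 0.631 CPM with scrambled siRNA (SD, n = 3 each). RUNX2, which drives bone formation, rose by 0.33 and the homeobox gene MSX1 by 0.25 (edgeR adjusted p = 0.0114 and 0.0168). The calls of ATOH8, GATA2, RUNX2 and MSX1 were lost without EHMT1 siRNA replicate 2; those of ATOH8 and MSX1 also without replicate 3, RUNX2 without replicate 1 and ATOH8 without scrambled replicate 1. HEY1 (100.5 RPKM in scrambled cells) and DLX1 (21.9 RPKM) had the highest levels per length and log2 fold changes of -0.05 and -0.15, not called.

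The TGF-beta and activin branch signals through SMAD2 and SMAD3. Of 23 genes listed for it 20 were tested, 6 rose and 0 fell, with a median of 0.10. At an unadjusted p under 0.05, edgeR gave 8 risen and 1 fallen. DESeq2 called 7 risen and 0 fallen, limma-voom 6 and 0. These counts depend on how the lists were drawn. GDF11, a ligand of this branch, and the co-receptor TGFBR3 were called as fallen (log2 fold changes -0.27 and -0.41) but stand in the BMP lists. MSTN (-0.07, not called) stands there too. LTBP2, a matrix protein of the family that binds latent TGF-beta, had 58.1, 58.4 and 60.7 CPM with EHMT1 siRNA and 33.2, 36.4 and 32.3 CPM with scrambled siRNA, and rose by 0.80 on the log2 scale (edgeR adjusted p = 7.24e-07). Every EHMT1 siRNA library lay above every scrambled library for LTBP2. TGFBI, CCN2, TGFBR2 and INHBE rose by 0.39, 0.38, 0.23 and 1.07 (edgeR adjusted p = 0.000395, 0.00332, 0.0121 and 0.0017), the call of TGFBR2 being lost without any 1 EHMT1 siRNA library. The ligand TGFB1 was at 0.00, SMAD2 at 0.07 and SMAD3 at 0.02, and none of these was called. Whether this branch differed from the BMP genes was not tested.

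**Figure D4:**
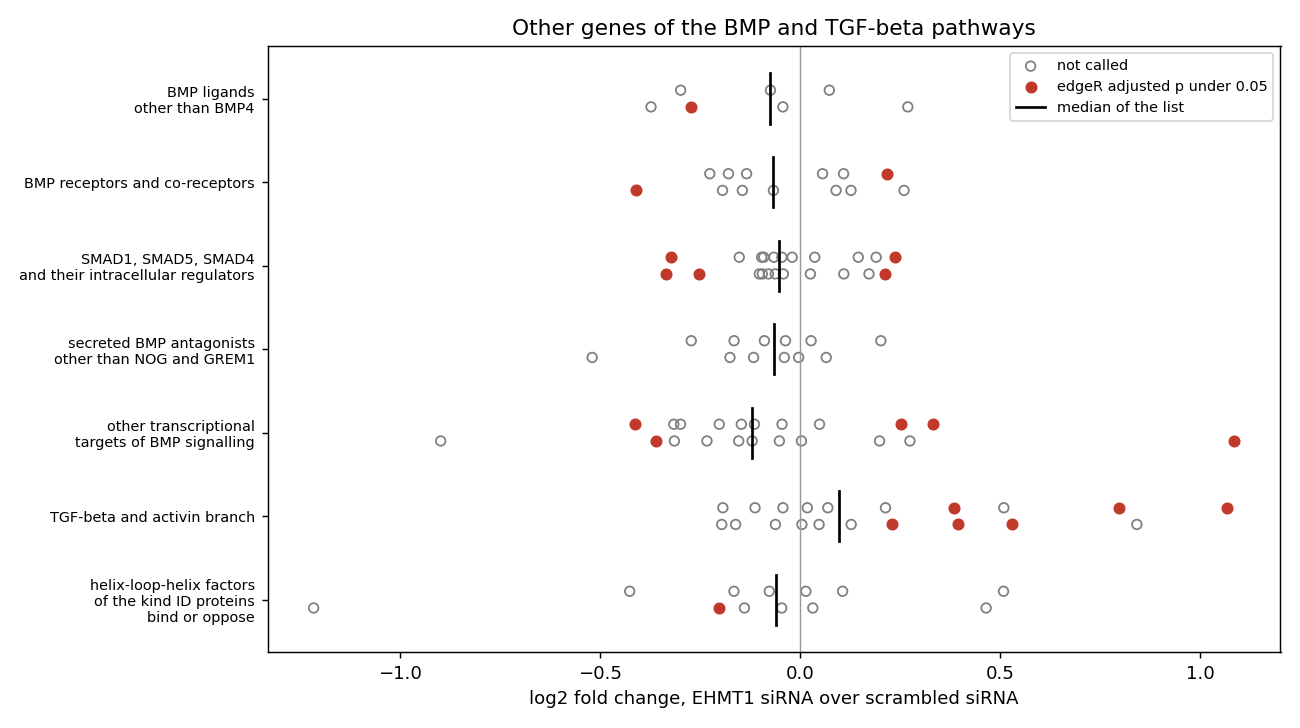
Log2 fold change, EHMT1 siRNA over scrambled siRNA, of the tested genes of the 7 lists (filled: edgeR adjusted p under 0.05; open: not called; black line: median of the list; vertical offsets are for legibility). The TGF-beta and activin list is drawn without GDF11 and TGFBR3, which are in the BMP lists. It has 6 filled points of 20, all to the right of 0. The other lists have at most 5, with 7 to 22 genes tested in each. Of all genes tested, 5.81% rose and 6.54% fell, and differences between lists were not tested.

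The last list held helix-loop-helix factors that ID proteins bind or oppose. Of its 16 genes 12 were tested, 0 rose and 1 fell, with a median of -0.06 (at an unadjusted p under 0.05, edgeR gave 0 risen and 3 fallen; DESeq2 and limma-voom each called 0 risen and 1 fallen). MYOD1, the master factor of muscle (86.6 RPKM in scrambled cells), had 155 ± 13.2 CPM with EHMT1 siRNA and 151 ± 9.28 CPM with scrambled siRNA (SD, n = 3 each), a log2 fold change of 0.03. TCF3, the E protein with the highest level per length (51.8 RPKM in scrambled cells), was at -0.17 (edgeR adjusted p = 0.132). TCF4, another E protein, was the gene that fell, at -0.20 (edgeR adjusted p = 0.0281), a call lost without any 1 EHMT1 siRNA library or scrambled replicate 1 or 3.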

How the data were processed

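RNA was selected by its poly-A tail and made into libraries with the NEBNext Ultra RNA kit (labels' protocols). Among tools the submitters' processing notes list STAR 2.5 and HTSeq 0.6.1, and hg19 as build; their roles are not given in the sources used here. Each library's deposited file held raw counts per gene as the authors made them, in 3 columns that treat strand differently. The column ignoring strand was used; in it, overlapping and antisense genes cannot be told apart. Reads naming no gene (20.0% to 21.2%) stayed out. Exon lengths came from GENCODE 29 by identifier, promoters from RefSeq (GRCh38.p14).

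Groups came from titles. Nothing in the labels says that the replicates were separate cultures; their spread, and so each p-value, may be technical. Replicates of a group differed by more than sampling noise (chi-square per degree of freedom 2.98 to 21.0). All 18646 genes passing filterByExpr (minimum count 10) entered 1 edgeR fit (edgeR 4.0.16 in R 4.3.3: TMM factors, robust quasi-likelihood F test on group, Benjamini-Hochberg, threshold 0.05). The fit was also run on simulated counts in which both groups had the same dispersion for each gene. That run does not cover the wider spread of the scrambled libraries. SE is the absolute log2 fold change over the square root of F.

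The 10 genes and all lists were chosen with earlier results of these data known. Named are the 10 genes, EHMT1 and the called genes of each list (at most 6). Also named are the 2 genes of each list with the highest level per length, and the 5 nearest profiles of ID1, ID3 and NOG. BMP2, BMP6, BMP7, TGFB1, SMAD1 to SMAD5 and the markers were named as context after their values were seen. One called gene of the TGF-beta and activin list is counted but not reported here. Alternatives were other size factors, filters, strand columns, DESeq2 1.42.0, limma-voom (limma 3.58.1), a replicate block, offsets for GC content and length (mgcv 1.9.3), a threshold of 0.01 and leaving out each library. A gene at 0 counts could lie at up to 0.0635 to 0.0738 CPM (3 counts; counting error only).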

Additional observations from a re-analysis of the deposited data

How the results depend on the processing

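The 4 calls among the 10 genes (ID1, ID3, SMAD6 and NOG) came out as a count of 4 under both other sets of size factors, both other filters, strand column 4, the replicate block, DESeq2 and limma-voom, as 3 with GC content and length corrected and as 0 in strand column 3, the sparser strand column (column 4 held 87.1% to 89.0% of the reads in both). Leaving out 1 library gave 3 to 5. EHMT1 stayed called, at -1.43 to -1.25. The number of genes called (2304) was 177 in strand column 3, 3549 with GC content and length corrected, 4168 with the replicate block added to that, 1017 at an adjusted p under 0.01 and 936 to 3548 with 1 library left out. The cause of these shifts was not tested.

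Calls per list ran over leave-one-out fits from 0 to 1 for ligands (1 with all libraries), 0 to 4 for receptors (2), 1 to 6 for SMADs and regulators (5), 0 to 2 for secreted regulators (0), 1 to 7 for other targets (5), 5 to 8 for the TGF-beta branch (6) and 0 to 2 for helix-loop-helix factors (1). With GC content and length corrected they were 2 ligands, 4 receptors, 3 secreted regulators, 8 other targets and 2 helix-loop-helix factors, and with the replicate block as well 2, 4, 3, 9 and 3, and 9 SMADs and regulators. In strand column 3 they were 0 for receptors, SMADs, other targets and helix-loop-helix factors and 3 for the TGF-beta branch. At an adjusted p under 0.01 they were 0 receptors, 2 SMADs and regulators, 2 other targets and 0 helix-loop-helix factors. For secreted regulators RLE factors, no filter, a minimum of 1 CPM in 3 libraries, strand column 4 and limma-voom gave 1, DESeq2 gave 2 and the replicate block gave 3. BMPR2 turned to -0.029 in strand column 3, where it was not called.

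With the longest transcript as length, ID3 was at 90.7, SMAD6 at 3.59, SMAD7 at 2.12 and BMP4 at 0.312 RPKM in scrambled cells, beside 3.96 for ID2. Whether the replicate numbers pair the samples was not settled: deviations of same-numbered libraries correlated only weakly, at 0.0555, 0.0154 and 0.0250. Each EHMT1 siRNA library correlated best with the scrambled library of its own number, but scrambled replicate 2 correlated best with EHMT1 siRNA replicate 3 (0.0185). With the replicate block 3106 genes were called. Depth limits BMP4, ID4 and GREM1 most.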
